A study of Homo sapiens with 70 samples.

Results

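NEAT1, MALAT1, MIR17HG, TUG1, KCNQ1OT1 and NORAD are long noncoding RNA genes whose transcripts are kept in the nucleus, host microRNAs or bind RNA-binding proteins. They were followed through culture time, between cell lines and after doxycycline in sotorasib-resistant MIA PaCa-2 cells. They were matched by symbol and are 6 of 78932 genes in the table, of which 46041 had a count in at least 1 library. The list was chosen by symbol with earlier results of these data known. Which measured values led to that choice is not recorded, so each adjusted p below describes a change against the spread between libraries and is not independent support.

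The MIA PaCa-2 line was established from a pancreatic ductal adenocarcinoma, and the cells used here were resistant to the cancer drug sotorasib. All of them carried an inducible dCas9-KRAB, a dead Cas9 joined to a repressor domain that lowers transcription where a guide RNA leads it. The guides were labelled sgZBTB11 #1 and sgZBTB11 #2, written sgZBTB11-1 and sgZBTB11-2 here, and the comparison guide was labelled sgNS. Each line received DMSO or doxycycline (DOX), and RNA was taken at 4 times, 5 hr, day 1, day 3 and day 5. There were 24 groups and 70 libraries, with 3 in a group, but 2 for sgNS given DMSO for 1 day and 2 for sgZBTB11-1 given DMSO for 5 days. Poly(A) RNA was sequenced. The labels give neither the DOX dose nor whether each line was a clone or a pool. They also do not say whether replicates were grown separately, so p-values measure the spread between libraries, and that spread may be technical only.

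NEAT1 is the architectural RNA of paraspeckles, nuclear bodies that assemble on its long form together with proteins such as NONO and SFPQ, while a short form shares its start. MALAT1 gathers in nuclear speckles with splicing factors. Both the long form of NEAT1 and MALAT1 have a 3′ end cut by RNase P and a triple helix there in place of a poly(A) tail. Poly(A) selection therefore does not hold them by a tail. MIR17HG is the host of the miR-17-92 cluster, a MYC and E2F target that is cut from the primary transcript by DROSHA. TUG1 is found in nucleus and cytoplasm, KCNQ1OT1 is an imprinted antisense transcript that silences neighbouring genes in cis together with Polycomb proteins, and NORAD is mainly cytoplasmic and binds RNA-binding proteins of the Pumilio family.

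The microRNAs that MIR17HG carries are shown because they are the product of this host, and their seeds fix which targets they share. The sequences are mature forms in RefSeq on GRCh38.p14, 1 from each precursor hairpin, and those from the other arms are not shown. They are written 5′ to 3′, all on the plus strand of chromosome 13 between 91350618 and 91351382, with bases 2 to 8, the seed, in capitals.
hsa-miR-17-5p: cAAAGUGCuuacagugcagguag
hsa-miR-20a-5p: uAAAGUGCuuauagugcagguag
hsa-miR-18a-5p: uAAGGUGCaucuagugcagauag
hsa-miR-19a-3p: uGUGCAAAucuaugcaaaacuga
hsa-miR-19b-3p: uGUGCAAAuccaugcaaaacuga
hsa-miR-92a-3p: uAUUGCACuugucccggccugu
hsa-miR-17-5p and hsa-miR-20a-5p share 1 seed, hsa-miR-19a-3p and hsa-miR-19b-3p share another, and hsa-miR-18a-5p and hsa-miR-92a-3p each have their own. The libraries measured the host transcript and not these short RNAs.

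NEAT1 (ENSG00000245532.12) lies on chromosome 11 from 65422798 to 65445540 and MALAT1 (ENSG00000251562.12) on the same chromosome from 65497738 to 65506516, 52198 bases away. The antisense gene TALAM1 overlaps MALAT1. MIR17HG (ENSG00000215417.15) is on chromosome 13 from 91347687 to 91354577. TUG1 (ENSG00000253352.10) is on chromosome 22 from 30969265 to 30979395, is typed protein-coding in the table and in RefSeq, and starts 491 bases from MORC2. KCNQ1OT1 (ENSG00000269821.2) is on chromosome 11 from 2608328 to 2699994 inside KCNQ1, and NORAD (ENSG00000260032.3) is on chromosome 20 from 36045618 to 36050960. Coordinates are those of RefSeq on GRCh38.p14. Without a known strand setting, reads of MALAT1 and TALAM1, and of KCNQ1OT1 and KCNQ1, cannot be told apart. In GENCODE v29, NEAT1 has 8 transcripts of 512 to 22743 bases, MALAT1 has 17 of 132 to 8708 bases, TUG1 has 20 of 375 to 7469 bases, and NORAD has 1 of 5339 bases.

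Total counts per library were 12068833 to 20627648. Genes of the mitochondrial DNA took 11.9% to 14.3% of counts at 5 hr, 9.91% to 12.6% at day 1, 17.8% to 22.2% at day 3 and 26% to 33.7% at day 5. The epithelial keratins KRT8 and KRT18 had median TPM of 993 and 1565, vimentin (VIM) had 3332 and EPCAM had 0. The 6 immune markers summed to 0.66 to 7.77 TPM over the libraries, the 4 endothelial markers to 0.87 to 12.6, nearly all of it CDH5 with a median of 5.8, and the 7 fibroblast markers to 97.0 to 212, of which COL1A2 had a median of 146, while PDGFRA, PDGFRB, DCN and LUM had medians of 0. In the sgZBTB11-2 line DOX lowered ZBTB11 by 0.59, 0.79 and 0.90 on the log2 scale at days 1, 3 and 5, and in the sgZBTB11-1 line by 0.28, 0.45 and 0.42. At 5 hr the ZBTB11 change was 0.17 in sgNS, -0.17 in sgZBTB11-2 and, not called, 0.00 in sgZBTB11-1, and at day 5 ZBTB11 in sgNS differed by -0.15. The target was therefore lowered in both ZBTB11 lines from day 1, against DMSO in the same line. In sgNS at day 1 ZBTB11 was at -0.11, not called. At 5 hr and day 1 the mean DOX change of both ZBTB11 lines minus that of sgNS was -0.26 and -0.32. At days 3 and 5 it was -0.56 and -0.50. That difference was called at each time but day 1 (adjusted p = 0.0545 in edgeR's quasi-likelihood test). At 5 hr ZBTB11 was called lower in sgZBTB11-2 alone, and the called change in sgNS, without a ZBTB11 guide, was of like size and opposite sign.

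Per length, the 6 RNAs spanned a wide range and kept nearly the same order throughout. These are levels in poly(A) libraries, which do not hold MALAT1 or the long form of NEAT1 by a tail. NEAT1 TPM also divides by an estimated length that moved between libraries, as given below. NEAT1 had the highest TPM (transcripts-per-million, which divides by length) of the 6 in all 70 libraries, with a lowest value of 227, a median of 491 and a highest of 990. MALAT1 followed in every library at 142 to 332 TPM (median 230), then TUG1 at 29.3 to 54.1 (39.9) and NORAD at 12.7 to 32.8 (22.6). MIR17HG at 0.97 to 6.3 TPM (2.37) and KCNQ1OT1 at 0.13 to 1.33 (0.505) exchanged the lowest places. Their counts set the precision: NEAT1 had 12270 to 43818 counts per library and MALAT1 6039 to 19190, whereas KCNQ1OT1 had 135 to 632 and MIR17HG 21 to 183. All 6 passed the filter on low counts in every fit. Levels below are CPM (counts-per-million after TMM scaling), which do not divide by length and are compared only within a gene.

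The first comparison followed the members through culture time in DMSO, as the mean of the 3 lines at each time minus the time before. KCNQ1OT1, TUG1, NEAT1 and MALAT1 rose between day 1 and day 3, while MIR17HG and NORAD fell. From 5 hr to day 1, 2 of the 6 members were called higher and 3 lower, beside 66.3% of all 18061 genes tested that passed the threshold, an adjusted p of 0.05 in edgeR's quasi-likelihood test. From day 1 to day 3, 4 were called higher and 2 lower beside 78.9% of all genes, and from day 3 to day 5, 3 higher and 2 lower beside 64.7%. Most genes of these cells changed with time, so the counts of members are near the background. Time here includes any change in culture density, medium and collection, which cannot be told apart, and the mitochondrial share of counts rose along with it.

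NEAT1 in DMSO had a median of 1369 CPM at 5 hr (1012 to 1394, n = 9), 1358 at day 1 (1249 to 1622, n = 8), 1938 at day 3 (1732 to 2230, n = 9) and 1824 at day 5 (1567 to 2130, n = 8). All libraries of day 3 were above all of day 1, and the other neighbouring times overlapped. The step from day 1 to day 3 was 0.50 on the log2 scale (SE 0.0195, adjusted p = 2.12e-37), with 0.69 in sgNS, 0.52 in sgZBTB11-1 and 0.31 in sgZBTB11-2. The earlier step of 0.13 (adjusted p = 1.46e-08) was not shared by the lines, which gave 0.33, -0.12 and 0.17, and it was -0.03 (adjusted p = 0.171) once a trend over gene length and GC content was removed. From day 3 to day 5 NEAT1 counts changed by -0.10 (adjusted p = 3.02e-06), whereas log2(TPM + 1) gave a rise of 0.29. That alternative differs in scaling and test as well as in dividing by length, and which of these turned the direction was not tested.

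MALAT1 also rose from day 1 to day 3. Its medians in DMSO were 701 CPM at 5 hr (498 to 750), 578 at day 1 (535 to 713), 803 at day 3 (698 to 929) and 889 at day 5 (736 to 945), with overlap between all neighbouring times. The step from day 1 to day 3 was 0.42 (SE 0.0217, adjusted p = 7.12e-27), made up of 0.73 in sgNS, 0.30 in sgZBTB11-1 and 0.23 in sgZBTB11-2. The steps before and after, -0.12 and 0.08, turned to 0.20 and -0.12 on the log2(TPM + 1) scale, so no direction is given for them. Over the 24 group means, log2 levels of NEAT1 and MALAT1 had a Pearson correlation of 0.852, a description of groups that share their collection time.

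**Figure D1:**
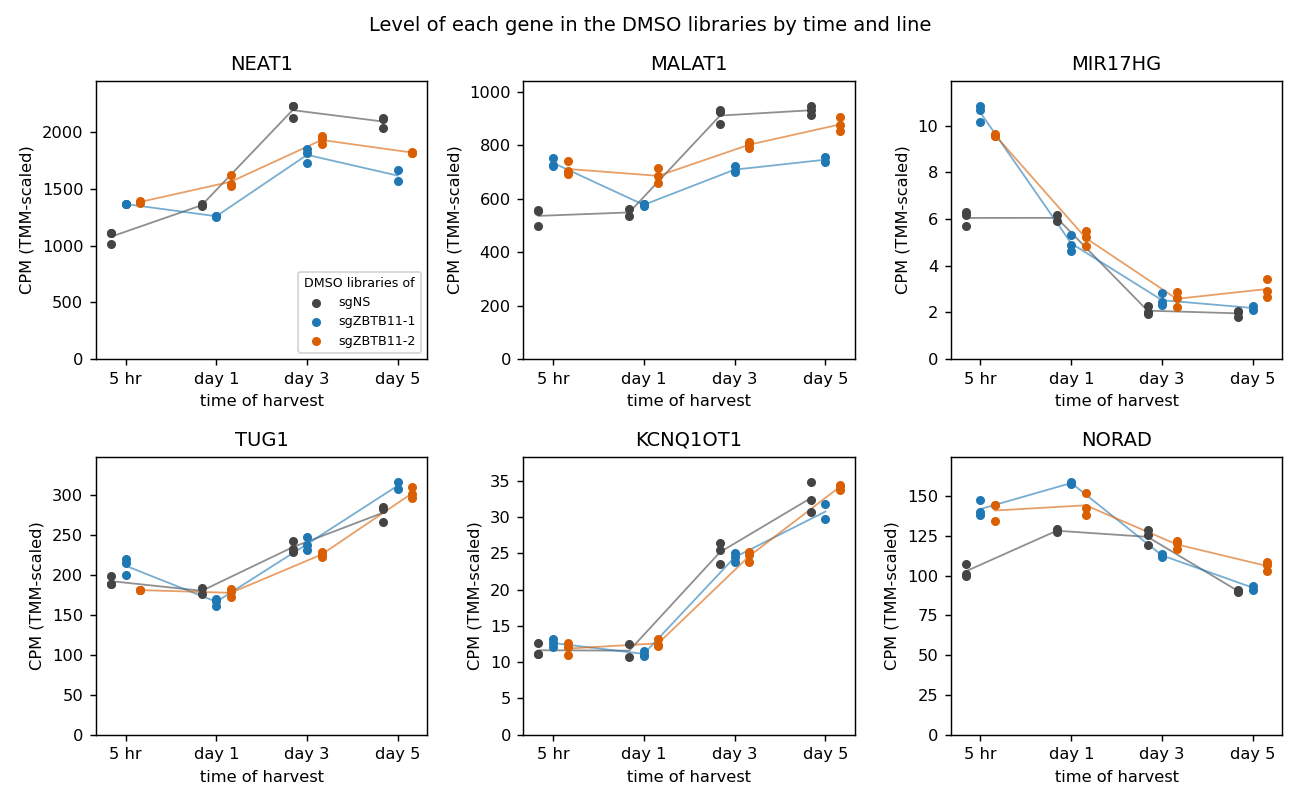
CPM of the 6 RNAs in the DMSO libraries at 5 hr and days 1, 3 and 5, 1 panel per gene, with points for single libraries coloured by guide and lines joining the group means. KCNQ1OT1 and TUG1 are higher at day 5 than at day 1 in every library, MIR17HG and NORAD are lower, and the sgNS libraries lie lowest for NEAT1, MALAT1, MIR17HG and NORAD at 5 hr.

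KCNQ1OT1 and TUG1 climbed from day 1 to day 5 in every line. KCNQ1OT1 had 12.1 CPM at 5 hr (11 to 13.2), 11.9 at day 1 (10.7 to 13.2), 24.8 at day 3 (23.6 to 26.4) and 33 at day 5 (29.7 to 34.8). Its values at days 1, 3 and 5 did not overlap. It rose by 1.07 (SE 0.045, adjusted p = 2.47e-38) from day 1 to day 3 and by 0.39 (SE 0.0376, adjusted p = 5.81e-16) to day 5, a call lost on log2(TPM + 0.1) (0.36, adjusted p = 0.065), while the first step of -0.04 missed the threshold (adjusted p = 0.535) and was -0.48 (adjusted p = 4.38e-13) with the length and GC trend removed. TUG1 had 189 CPM at 5 hr (181 to 220), 174 at day 1 (161 to 184), 231 at day 3 (223 to 248) and 299 at day 5 (267 to 316), again with no overlap from day 1 on. It rose by 0.42 (SE 0.0197) and then by 0.35 (SE 0.0189), with adjusted p of 1.38e-34 and 2.51e-30. The step of -0.16 from 5 hr to day 1 was 0.06 on the log2(TPM + 1) scale.

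NORAD and MIR17HG went down with time. NORAD had 138 CPM at 5 hr (99.6 to 148), 147 at day 1 (127 to 159), 119 at day 3 (111 to 128) and 92.4 at day 5 (89.7 to 109). After a rise of 0.17 to day 1 (adjusted p = 9.07e-12), it fell by 0.27 to day 3 (adjusted p = 5.12e-21) and by 0.31 to day 5 (adjusted p = 8.92e-23). In sgNS the fall from day 1 to day 3 was small, -0.04 against -0.49 in sgZBTB11-1 and -0.27 in sgZBTB11-2, and the last step there was -0.46. MIR17HG had 9.57 CPM at 5 hr (5.69 to 10.8), 5.27 at day 1 (4.63 to 6.17), 2.31 at day 3 (1.93 to 2.87) and 2.19 at day 5 (1.81 to 3.43). It fell by 0.66 (SE 0.0695, adjusted p = 2.58e-14) to day 1 and by 1.17 (SE 0.0863, adjusted p = 2.33e-22) to day 3, and the last step of -0.02 missed the threshold (adjusted p = 0.923). The first step was -1.02 and -0.83 in the ZBTB11 lines and 0.00 in sgNS, whose DMSO libraries had 5.69 to 6.28 CPM at 5 hr.

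Genes tied to these RNAs moved in both directions. From day 1 to day 3, 78.9% of all genes were called, 7256 higher and 7002 lower, so a high share called within a list is near the background. Of 23 tested paraspeckle proteins, 4 rose and 17 fell from day 1 to day 3, with a median log2 change of -0.31 beside 0.04 for all genes, and on the log2(TPM + 1) scale 7 rose and 13 fell, with a median of -0.17 beside 0.05. CPSF6 (-0.78) and HNRNPF (-0.69) fell and SS18L1 rose (0.77), while the gene-level count of NEAT1 rose. That count does not separate the long form, on which paraspeckles assemble, from the short form. Among 29 nuclear speckle and splicing factors, 13 rose and 15 fell (median -0.10, turning to 0.06 with 14 and 12 on the TPM scale), with the kinase CLK2 at 0.95 and the splicing activator TRA2B at -0.85. Factors that cut, trim or protect the 3′ ends of nuclear RNAs fell in 16 of 20 cases and rose in 3 (median -0.60), among them the RNase P subunits RPP40 (-1.36) and RPP25 (-1.16) and the exonuclease XRN2 (-0.97). From day 3 to day 5, beside 64.7% of all genes, paraspeckle proteins gave 6 higher and 13 lower (median -0.14), and on the TPM scale 1 and 20 (median -0.25), where the median of all genes moved to -0.16.

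Transcription and processing factors of MIR17HG fell in 10 of 15 cases and rose in 3 from day 1 to day 3 (median -0.25), beside the 78.9% of all genes called in this step. The activators E2F1 (-1.14) and E2F2 (-1.06) fell and the microRNA-binding protein AGO4 rose (0.90). Of 21 tested genes described as miR-17-92 targets, 8 rose and 10 fell (median -0.11), with MAP3K12 at 1.69 and RHOB at -0.97. Other microRNA hosts gave 5 higher and 3 lower of 10, from MIR210HG, a hypoxia-linked host, at 2.58 to MIR4435-2HG at -1.59.

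The 14 NORAD partners and Pumilio targets gave 5 higher and 9 lower in the same step, again beside 78.9% of all genes (median -0.30), led by ALYREF, an mRNA export adaptor (-1.99), PRPF19, a spliceosome ubiquitin ligase (-1.55), and the topoisomerase TOP1 (-1.01). At the KCNQ1OT1 domain, 4 of 8 tested genes rose and 4 fell (median -0.25), the lower ones including PHLDA2 (-1.16), TSSC4 (-0.98) and CD81 (-0.75). Polycomb and histone methylation proteins were split, 8 higher and 7 lower of 15 (median 0.10), with PHF19 at -0.92 and the DNA methyltransferase DNMT1 at -0.71. Of 39 other named long noncoding RNAs, 18 rose and 13 fell (median 0.13), and UCA1 (-1.91) and CYTOR (-1.56) were the lowest. Over all 4181 further genes typed lncRNA, 2339 rose and 511 fell in this step, with a median of 0.54. The changes of NEAT1 at 0.50 and MALAT1 at 0.42 were close to that median, and KCNQ1OT1 at 1.07 was above it. MIR17HG at -1.17 and NORAD at -0.27, also typed lncRNA, fell in this step.

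FRMD8, 9273 bases from NEAT1, fell by 1.21 from 5 hr to day 1 and then rose by 0.16. LTBP3, which binds latent TGF-beta and lies 32043 bases from MALAT1, gave -0.51, 0.68 and 0.33 over the 3 steps. MORC2, next to TUG1, gave -0.35, 0.26 and 0.56, each past the threshold. On the count scale the signs of MORC2 were those of TUG1 at every step, and those of LTBP3 were those of MALAT1. The first steps of TUG1 and MALAT1 and the last of MALAT1 turn on the TPM scale, as given above.

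The deposited tables also allow a relative length to be derived for each gene. Counts divided by TPM give, within a library, a value proportional to the mean effective length used for a gene, and it falls when more of the gene's count is assigned to shorter transcripts. Relative to NORAD, which has a single transcript, this implied length of NEAT1 in DMSO had a median of 0.646 at 5 hr (0.584 to 0.651), 0.762 at day 1 (0.685 to 0.790), 0.554 at day 3 (0.473 to 0.595) and 0.344 at day 5 (0.291 to 0.419). Days 1, 3 and 5 did not overlap. The median at day 5 was 0.451 of that at day 1, and 0.456 with all genes as the reference.

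MALAT1 and TUG1 did not follow, with medians for MALAT1 of 0.525 at day 1 and 0.564 at day 5 and for TUG1 of 0.974 and 0.967. MIR17HG went from 0.331 to 0.222 with overlapping values, and KCNQ1OT1 from 9.14 (4.90 to 12.6) to 5.24 (4.91 to 6.44), overlapping too. KCNQ1OT1 has 1 transcript in GENCODE v29, yet its ratio ran from 3.49 to 15.0 over the libraries, at 0.13 to 1.33 TPM. The cause of that spread was not tested, and the annotation behind the deposited values is not given in the sources used here. At day 5 the NEAT1 value was 0.403 ± 0.0139 in sgNS with DMSO (SD, n = 3) and 0.379 ± 0.006 with DOX (n = 3), against 0.342 ± 0.0029 and 0.329 ± 0.0067 in sgZBTB11-2 (n = 3 each). In sgZBTB11-1 it was 0.291 and 0.298 in the libraries with DMSO and 0.302 ± 0.0044 with DOX (n = 3). NEAT1 TPM therefore rose more than its CPM, from a median of 339 at day 1 to 867 at day 5. No test was made on these ratios, and gene-level counts do not show which end of NEAT1 the reads came from.

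**Figure D2:**
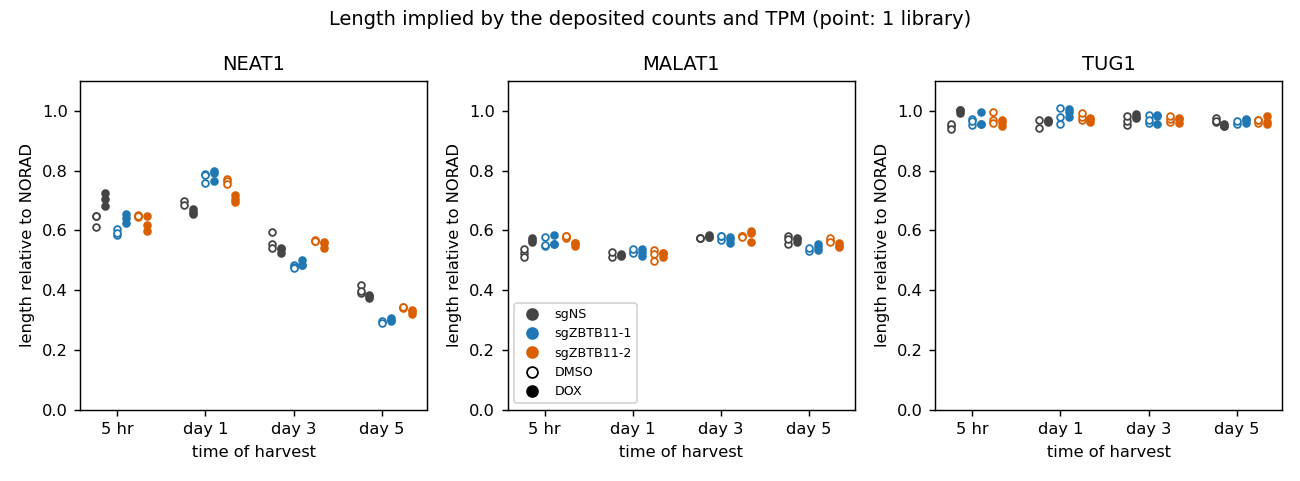
Implied mean length of NEAT1, MALAT1 and TUG1 relative to NORAD (counts divided by TPM, NORAD set to 1) in every library over the 4 collection times, open for DMSO and filled for DOX. NEAT1 drops from 0.685 to 0.790 at day 1 in DMSO to 0.291 to 0.419 at day 5, while TUG1 stays near 0.97.

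The second comparison asked how the lines differed without DOX, each ZBTB11 line with DMSO against sgNS with DMSO at the same time. ZBTB11 itself differed there. In sgZBTB11-1 and sgZBTB11-2 it was at 0.13 and 0.11 at 5 hr, and at -0.09 and -0.19 at day 1. At day 3 ZBTB11 was at -0.25 and -0.26, and at day 5 at -0.23 and -0.11. It was called in sgZBTB11-1 at 5 hr and day 5, in sgZBTB11-2 at day 1, and in both at day 3. DOX changes of these lines start from those levels. At 5 hr the sgNS libraries were low for 4 of the RNAs. NEAT1 had 1115, 1111 and 1012 CPM in sgNS, 1364, 1369 and 1370 in sgZBTB11-1 and 1386, 1394 and 1377 in sgZBTB11-2. MALAT1 had 552, 556 and 498 CPM in sgNS against 727, 750 and 723 in sgZBTB11-1 and 701, 740 and 691 in sgZBTB11-2. NORAD had 107, 101 and 99.6 CPM in sgNS and 134 to 148 in the ZBTB11 lines, and MIR17HG had 6.28, 6.16 and 5.69 against 9.55 to 10.8. The sgNS values did not overlap with those of either ZBTB11 line for these 4 genes. How many of all genes separate in the same way was not counted, so this describes the values only.

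In sgZBTB11-1 at 5 hr, 5 of the 6 members were called higher and 0 lower beside 32% of 15623 genes, and in sgZBTB11-2 4 were higher and 0 lower beside 32.2%. NEAT1 was higher by 0.37 in each line (SE 0.0367 in both, adjusted p = 4.45e-08 and 4.94e-08). MALAT1 was higher by 0.48 and 0.42, NORAD by 0.49 and 0.47, and MIR17HG by 0.82 and 0.67. TUG1 was called in sgZBTB11-1 alone, at 0.17 (adjusted p = 0.000145), against -0.07 (adjusted p = 0.094) in sgZBTB11-2, and the 2 lines were not tested against each other. Both comparisons share the 3 sgNS libraries. Mitochondrial genes took 13.7% to 14.3% of counts in sgNS with DMSO, 14% to 14.1% in sgZBTB11-1 and 12.5% to 12.7% in sgZBTB11-2, and the part of RNA quality in the difference was not tested.

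By day 3 the order had turned for NEAT1 and MALAT1 in both ZBTB11 lines. At day 1 its sign had turned only for NEAT1 in sgZBTB11-1, while MALAT1 there was at 0.08 (adjusted p = 0.0892, not called). At day 1, sgZBTB11-1 gave 1 member higher and 2 lower beside 21.2% of genes, and sgZBTB11-2 gave 3 higher and 0 lower beside 10.7%. In sgZBTB11-2, NEAT1 was higher by 0.22 (adjusted p = 2.01e-06), MALAT1 by 0.33 (1.9e-09) and NORAD by 0.18 (0.000686). In sgZBTB11-1, NORAD was higher by 0.31 (adjusted p = 4.25e-08). NEAT1 at -0.10 (adjusted p = 0.012) and TUG1 at -0.11 (0.0229) were lower there, but without replicate 1 of sgNS with DMSO the adjusted p was 0.146 for NEAT1 and 0.346 for TUG1. Without replicate 1 of sgZBTB11-1 it was 0.0501 for NEAT1 and without replicate 3 it was 0.106 for TUG1, and TUG1 gave 0.03 on the log2(TPM + 1) scale.

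At day 3 NEAT1 had 2130, 2230 and 2229 CPM in sgNS, 1817, 1732 and 1856 in sgZBTB11-1 and 1966, 1895 and 1938 in sgZBTB11-2. All sgNS values were now the highest. The members called were 0 higher and 3 lower in sgZBTB11-1 beside 19.7% of genes, and 0 higher and 2 lower in sgZBTB11-2 beside 3.32%. NEAT1 differed by -0.28 (adjusted p = 3.19e-08) and -0.18 (0.000398), and MALAT1 by -0.36 (9.31e-12) and -0.18 (0.000125). In sgZBTB11-2 neither was called on the log2(TPM + 1) scale, with -0.21 and -0.22. NORAD was lower in sgZBTB11-1 by 0.14 (adjusted p = 0.00479).

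At day 5, 1 member was higher and 2 were lower in sgZBTB11-1 beside 21.8% of genes, and 3 were higher and 2 lower in sgZBTB11-2 beside 18%. NEAT1 had 2121, 2035 and 2130 CPM in sgNS, 1567 and 1669 in sgZBTB11-1 and 1816, 1819 and 1830 in sgZBTB11-2, with no overlap between lines. The differences were -0.39 (adjusted p = 5.76e-16) and -0.21 (3.16e-09). MALAT1 differed by -0.34 (adjusted p = 1.33e-13) and -0.10 (0.00421), and the latter was not called without replicate 2 of sgZBTB11-2 (0.0652). TUG1 counts were higher by 0.15 and 0.11, but log2(TPM + 1) gave -0.07 and -0.03, neither called. NORAD was higher in sgZBTB11-2 by 0.22 (adjusted p = 4.65e-06), and 0.07 with no call on the TPM scale. MIR17HG was higher there by 0.60 (adjusted p = 0.0296), from 3.43, 2.90 and 2.68 CPM against 2.02, 1.81 and 2.04. That call was lost without any 1 of sgNS replicates 1, 2 and 3 or sgZBTB11-2 replicates 1 and 2, with adjusted p of 0.0519 to 0.163. Mitochondrial genes took 26% to 26.4% of counts in sgNS, 33.6% to 33.7% in sgZBTB11-1 and 31% to 31.5% in sgZBTB11-2 with DMSO at day 5, and their part in these differences was not tested. KCNQ1OT1 was not called between lines at any time.

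The third comparison was DOX against DMSO within each line, the step that induces dCas9-KRAB. At 5 hr NEAT1, MALAT1 and NORAD had their largest DOX changes of the 3 lines in sgNS, the line without a ZBTB11 guide, and MIR17HG, TUG1 and KCNQ1OT1 in sgZBTB11-1, where KCNQ1OT1 was not called. NEAT1 in sgNS went from 1115, 1111 and 1012 CPM with DMSO to 1604, 1418 and 1470 with DOX, against 1306, 1283 and 1267 with DOX in sgZBTB11-1 and 1236, 1233 and 1247 in sgZBTB11-2. In sgNS the DOX libraries were all above the DMSO libraries, and in both ZBTB11 lines they were all below. MALAT1 in sgNS went from 498 to 556 CPM to 823, 706 and 736.

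In sgNS at 5 hr, 4 members were called higher and 1 lower beside 40.9% of genes. NEAT1 rose by 0.49 (SE 0.0367, adjusted p = 2.34e-10), MALAT1 by 0.52 (SE 0.0555, 3.24e-06) and NORAD by 0.47 (SE 0.039, 8.86e-13). MIR17HG rose by 0.37 (adjusted p = 0.00794), with no call once the length and GC trend was removed (0.305) or on the log2(TPM + 1) scale (0.152). TUG1 counts fell by 0.18 (adjusted p = 5.17e-05), while its log2(TPM + 1) change was 0.0015. With genes of the mitochondrial DNA left out of the scaling alone, the changes of NEAT1 and MALAT1 were 0.49 and 0.52. The same 3 sgNS libraries with DMSO stand behind these changes and behind the line differences at 5 hr. Mitochondrial genes took 13.7% to 14.3% of counts there and 11.9% to 12.4% in sgNS with DOX, and their part in these changes was not tested.

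In sgZBTB11-1 at 5 hr, 0 members rose and 2 fell beside 32.8% of genes, namely MIR17HG by 0.38 (adjusted p = 0.00269) and TUG1 by 0.21 (3.61e-06). Neither was called on the log2(TPM + 1) scale, with adjusted p of 0.368 and 0.125. In sgZBTB11-2, 1 rose and 2 fell beside 17%. NORAD fell by 0.20 (adjusted p = 0.000149) and NEAT1 by 0.15 (0.00551, but 0.283 on the log2(TPM + 1) scale). TUG1 rose by 0.13 (adjusted p = 0.00457), and without replicate 3 of sgZBTB11-2 with DOX the adjusted p was 0.066.

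**Figure D3:**
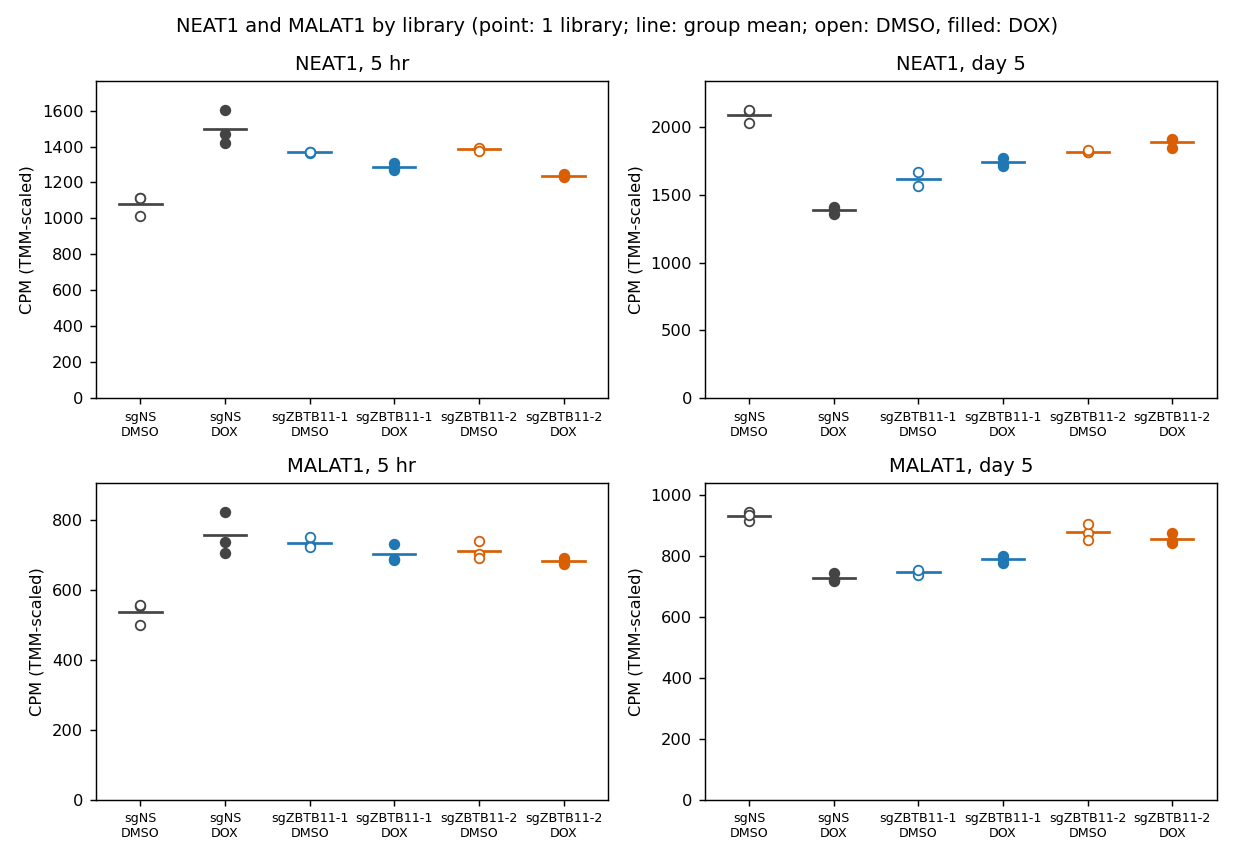
CPM of NEAT1 and MALAT1 in each library of 5 hr (left) and day 5 (right), by guide and treatment, with open points for DMSO, filled points for DOX and lines for group means. In sgNS, NEAT1 is higher with DOX than with DMSO at 5 hr (1418 to 1604 against 1012 to 1115) and lower at day 5 (1360 to 1411 against 2035 to 2130), and MALAT1 follows.

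In sgNS at 5 hr the lists around NEAT1, NORAD and the miR-17-92 targets held more members called higher than lower, beside 40.9% of all genes called in either direction. Of 23 tested paraspeckle proteins 15 rose and 1 fell (median 0.17, beside 0.00 for all genes), with ZNF24 at 0.46, HNRNPK at 0.38 and TARDBP at 0.35. On the log2(TPM + 1) scale the median of all genes moved to 0.17 in this comparison, and 21 paraspeckle proteins were called higher and 0 lower, with a median of 0.37. Of 14 NORAD partners and Pumilio targets, 11 rose and 1 fell (median 0.28), among them CDKN1B (0.48) and TOP1 (0.45). Targets described for miR-17-92 gave 10 higher and 1 lower of 20 (median 0.16), with PRKAA1 at 0.70. Nuclear speckle and splicing factors gave 8 higher and 6 lower of 29, 3′ end factors 6 and 7 of 20, and Polycomb and histone methylation proteins 5 and 5 of 15, with SUZ12 at 0.57 and EHMT2 at -0.38. These 3 splits rest on the scale, being 24 and 0, 12 and 0, and 9 and 1 on log2(TPM + 1). Tested neighbours gave 0 higher and 9 lower of 21, including LTBP3 (-0.39), MORC2 (-0.24) and SCAND1 (-0.41). Other genes typed lncRNA gave 118 higher and 265 lower of 2812, with a median of -0.06.

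At days 1 and 3 the fitted DOX changes of NEAT1 and MALAT1 were smaller than in sgNS at 5 hr and day 5, and MIR17HG had its largest, a fall in sgNS at day 1. At day 1, sgNS had 0 members higher and 2 lower beside 2.19% of genes, sgZBTB11-1 had 2 higher and 0 lower beside 4.84%, and sgZBTB11-2 had 0 of either beside 7.88%. MIR17HG in sgNS went from 5.92 and 6.17 CPM with DMSO to 3.74, 3.93 and 3.51 with DOX, a fall of 0.68 (SE 0.161, adjusted p = 0.0132). The call rests on both DMSO libraries, with adjusted p of 0.0959 without replicate 1 and 0.175 without replicate 2. TUG1 in sgNS fell by 0.14 (adjusted p = 0.0177), and the adjusted p was 0.354 without DMSO replicate 1 and 0.122 without DOX replicate 1. In sgZBTB11-1, NEAT1 rose by 0.12 (adjusted p = 0.00369, but 0.0539 without DOX replicate 1 and 0.163 on the log2(TPM + 1) scale). MALAT1 there rose by 0.10 (adjusted p = 0.0349), a call lost when any 1 of the 6 libraries was left out (0.0631 to 0.161).

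At day 3 the counts were 0 members in sgNS beside 0.877% of genes, 1 higher and 0 lower in sgZBTB11-1 beside 0.733%, and 0 in sgZBTB11-2 beside 1.17%. MALAT1 in sgZBTB11-1 rose by 0.13 (adjusted p = 0.0354), from 704, 698 and 722 CPM to 745, 772 and 812. When DMSO replicate 1 or 2 was left out its adjusted p was 0.146 or 0.182, and it was 0.0655 or 0.32 when DOX replicate 2 or 3 was.

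At day 5 the change of NEAT1 with DOX in sgNS was the largest of its DOX changes in the 3 lines and 4 times. NEAT1 there went from 2121, 2035 and 2130 CPM to 1398, 1360 and 1411, and MALAT1 from 913, 945 and 933 to 720, 717 and 744. In sgZBTB11-1, NEAT1 had 1567 and 1669 CPM with DMSO and 1777, 1718 and 1728 with DOX, and in sgZBTB11-2 it had 1816, 1819 and 1830 with DMSO and 1918, 1851 and 1910 with DOX. With DOX sgNS fell below both ZBTB11 lines, where with DMSO it had been above them.

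In sgNS at day 5, 0 members were higher and 2 lower beside 17.3% of genes. NEAT1 fell by 0.60 (SE 0.0255, adjusted p = 6.13e-25) and MALAT1 by 0.36 (SE 0.0256, 1.93e-16). With genes of the mitochondrial DNA left out of the scaling alone, the falls were 0.60 and 0.36. TUG1 counts gave 0.01 (adjusted p = 0.93) and its log2(TPM + 1) gave -0.17, called lower. Mitochondrial genes took 26% to 26.4% of counts with DMSO and 29.4% to 29.8% with DOX, and their part in these changes was not tested. The antisense TALAM1 (mean 3.29 CPM) changed by -0.48 (SE 0.173, adjusted p = 0.0482) and FRMD8 by -0.23 (8.13e-05). Paraspeckle proteins gave 2 higher and 9 lower of 23 (median -0.06, beside 0.00 for all genes), or 0 and 16 on the TPM scale (median -0.22, beside -0.16), and the other named long noncoding RNAs 2 higher and 11 lower of 38 (median -0.08), with LINC00641 at -0.63. The Polycomb protein CBX8 was at -0.50 and the microRNA-binding AGO2 at -0.42.

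In sgZBTB11-1 at day 5, 1 member was higher and 0 lower beside 1.14% of genes. This was NEAT1 at 0.11 (adjusted p = 0.0313), and the adjusted p was 0.702 without DMSO replicate 1, 0.214 without DOX replicate 1, 0.0671 without DOX replicate 3, and 0.0604 with a replicate block. In sgZBTB11-2, 0 were higher and 1 lower beside 9%, NORAD falling by 0.24 (SE 0.0364, adjusted p = 2.93e-06) from 103, 107 and 109 CPM to 89.1, 90.0 and 91.1. NORAD in sgNS was at -0.06 (adjusted p = 0.334), and -0.25 with a call on the log2(TPM + 1) scale. KCNQ1OT1 was not called with DOX in any line at any time, with fitted changes of -0.19 to 0.20.

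**Figure D4:**
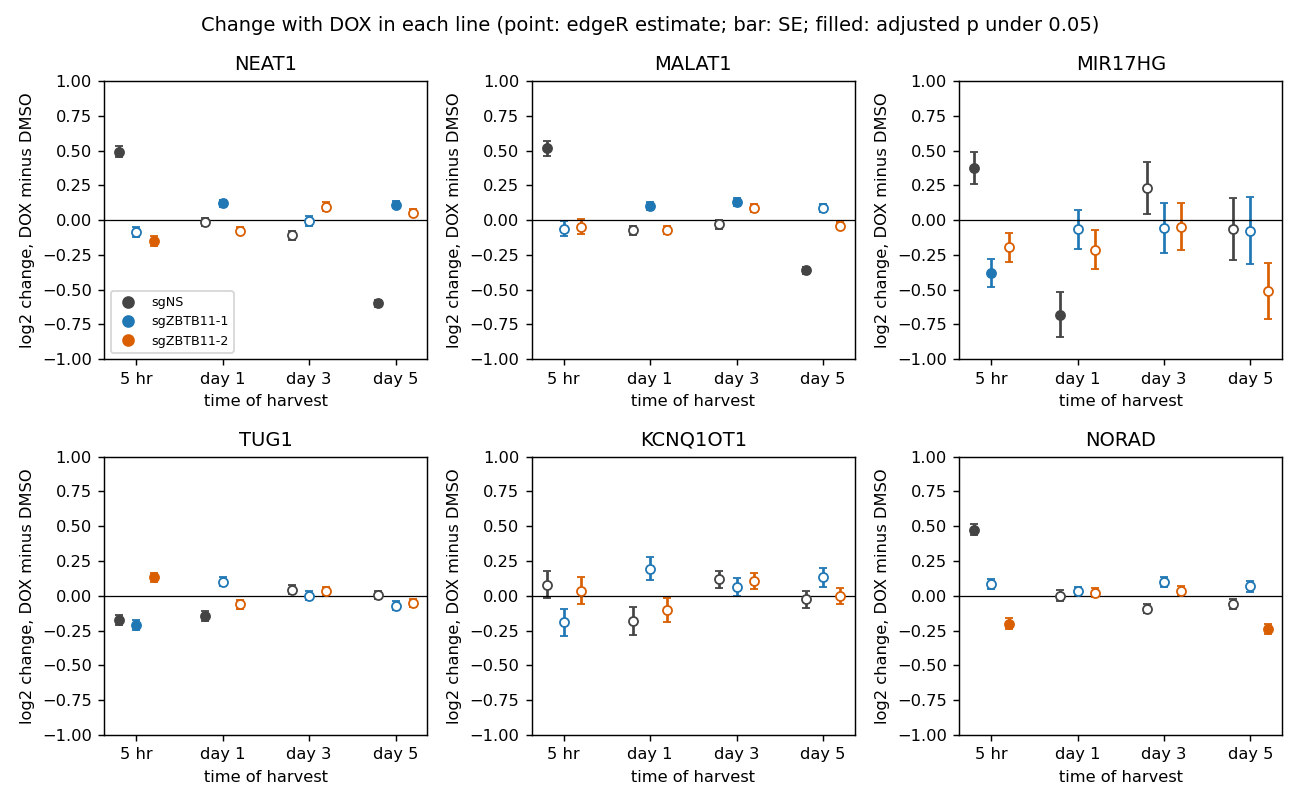
Fitted log2 change with DOX against DMSO of the 6 RNAs in each line and at each time, with bars of 1 standard error and filled points where the adjusted p was under 0.05. NEAT1 and MALAT1 in sgNS are at 0.49 and 0.52 at 5 hr and at -0.60 and -0.36 at day 5, while their changes in the ZBTB11 lines lie between -0.15 and 0.13.

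The last comparison took the mean DOX change of the 2 ZBTB11 lines minus the DOX change in sgNS. At 5 hr, 1 member was higher and 4 lower beside 30% of genes, and at day 5, 2 were higher and 0 lower beside 19.2%. At 5 hr NEAT1 was at -0.61 (SE 0.0449, adjusted p = 8.62e-10), MALAT1 at -0.57 (1.72e-05), NORAD at -0.53 (3.53e-11), MIR17HG at -0.66 (0.000178) and TUG1 at 0.14 (0.0105). MIR17HG and TUG1 were not called on the log2(TPM + 1) scale, with adjusted p of 0.0977 and 0.847, and TUG1 not without sgNS DOX replicate 1 (0.0506). At day 5 NEAT1 was at 0.68 (SE 0.0319, adjusted p = 1.28e-23) and MALAT1 at 0.38 (SE 0.0321, 4.77e-14).

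These differences use the same sgNS libraries as the DOX changes in sgNS above, 0.49 and -0.60 for NEAT1. At 5 hr, beside 30% of all genes, paraspeckle proteins gave 1 higher and 16 lower of 23 in this comparison (median -0.22), and 0 and 21 on the TPM scale (median -0.34 beside -0.13 for all genes). At day 5, beside 19.2%, they gave 6 higher and 2 lower (median 0.06), and 14 and 0 on the TPM scale (median 0.23 beside 0.19). At day 1, 0 members were called beside 0.0737% of genes, with MIR17HG at 0.54 (adjusted p = 0.639) and TUG1 at 0.16 (0.167). At day 3, 0 were called beside 0.493%, with NEAT1 at 0.15 (adjusted p = 0.0737), MALAT1 at 0.14 (0.0858) and NORAD at 0.16 (0.0918). Without replicate 1 of sgNS with DMSO at day 3, those 3 passed the threshold at 0.0188, 0.0138 and 0.0186. Without replicate 1 of sgZBTB11-1 with DOX, NEAT1 (0.0333) and MALAT1 (0.0361) passed too.

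Genes with the most similar pattern were sought among 11201 genes with a mean of at least 5 CPM, by Pearson's r of log2 levels over the 24 group means, which share time and line. NEAT1 was nearest to 2 lncRNA genes without a symbol, ENSG00000271533 (0.95) and ENSG00000272335 (0.925), and to SPIN3 (0.941). MALAT1 was nearest to ATXN7 (0.918), MYSM1 (0.911) and ATAD2B (0.903). MIR17HG was nearest to IGFBP1 (0.977), PYGB (0.976) and ANKRD33B (0.975), and TUG1 to CDK5RAP3 (0.991), HSF4 (0.99) and TUBG2 (0.99). KCNQ1OT1 was nearest to FAM13B (0.994), ATP8A1 (0.993) and HOXB3 (0.993), and NORAD to ADIPOR2 (0.959), DCAF16 (0.958) and PAQR3 (0.958). Among the members, TUG1 and KCNQ1OT1 ran together (0.951), and NORAD ran against TUG1 (-0.848).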

How the data were processed

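Gene-level expected counts, which RSEM estimates and which can be fractions of a read, and TPM values were deposited by the authors as 2 tables. The submitters' processing notes name RSEM and GRCh38.p14. Which aligner, annotation and strand setting were used is not given in the sources used here. Expected counts were rounded (5.13% of values were not whole, with no tolerance), and 0 columns belonged to other samples. Groups came from the labels. The 68 pairs of libraries within groups gave a chi-square per degree of freedom of 1.33 to 4.93 (median 1.64), and 0 pairs were identical. The highest value was between replicates 1 and 2 of sgZBTB11-2 with DMSO at day 1. In sgNS with DMSO at 5 hr, replicate 3 gave 4.62 and 4.86 against replicates 1 and 2, which gave 1.65 with each other.

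Changes were tested by robust quasi-likelihood F tests in edgeR 4.0.16 (R 4.3.3) after TMM scaling and filterByExpr, with groups as the design, and adjusted by Benjamini-Hochberg over all genes tested, at a threshold of 0.05. Each time point had its own fit for lines, DOX and net changes, and 1 fit of all 70 libraries gave the time steps. The scripts were tested on simulated data. Genes named in the text are the 6 members and some of those that a rule allows, up to 3 called genes per list and kind of comparison (largest change, mean CPM of at least 5), neighbours within 100000 bases called in a comparison, the 3 genes most alike to each member, and ZBTB11. At least 1 gene that the rule allows is not reported here. The members and the 15 lists (10 of related genes, 5 of cell markers) were chosen with earlier results of these data known. As alternatives, DESeq2 1.42.0 and RLE scaling were run, and also no filter, other sets of libraries, a replicate block, leaving out mitochondrial DNA genes, limma 3.58.1 on log2(TPM + 1) and log2(TPM + 0.1), which understates changes of low genes, and each library left out in turn. Lists were recounted under RLE scaling, without mitochondrial DNA genes and on log2(TPM + 1). Where mitochondrial DNA genes were left out, only the library sizes and scaling factors were recomputed. The recount of lists and the removal of a length and GC trend were chosen after seeing the data.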

Additional observations from a re-analysis of the deposited data

Results flagged for a closer look

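The DOX change of the ZBTB11 lines differed from that of sgNS for 5 members at 5 hr and 2 at day 5. Of all genes tested, 30% passed the threshold at 5 hr and 19.2% at day 5. The difference itself was tested by edgeR's quasi-likelihood test, with 3 libraries a group and 2 for sgZBTB11-1 with DMSO at day 5. At 5 hr the difference was -0.66 for MIR17HG, -0.61 for NEAT1, -0.57 for MALAT1, -0.53 for NORAD and 0.14 for TUG1 on the log2 scale. At day 5 it was 0.68 for NEAT1 and 0.38 for MALAT1. NEAT1 and MALAT1 thus had opposite signs at the 2 times, and their DOX changes at both were larger in sgNS than in either ZBTB11 line.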

How the results depend on the processing

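Calls over the 6 members numbered 16 for time, 28 for lines, 19 for DOX and 7 for net changes, and with a replicate block they numbered 16, 28, 19 and 7. That block turned 1 NEAT1 and 1 NORAD call, in sgZBTB11-1. Same-numbered libraries had correlations of deviations of -0.193 to 0.317 over 34 pairs, so the numbers were not taken as pairs. Leaving out 1 library gave 16 to 16, 26 to 28, 17 to 21 and 6 to 10 calls, and other settings 15 to 16, 24 to 31, 11 to 20 and 7 to 10. Calls that held in every setting run numbered 10 of 16, 19 of 28, 7 of 19 and 5 of 7. DOX calls numbered 11 on log2(TPM + 0.1) and 11 on log2(TPM + 1), where the median of all genes shifted by -0.22 to 0.22 between comparisons. The implied length of TUG1 at day 5 over day 1 was 0.993, and 0.999 with all genes as reference.

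Directions that reversed on log2(TPM + 0.1) and log2(TPM + 1), in that order, were MALAT1 from 5 hr to day 1 (0.20, 0.20), TUG1 in that step (0.065, 0.063), NEAT1 from day 3 to day 5 (0.29, 0.29) and MALAT1 in that step (-0.12, -0.12). They were also TUG1 with DOX in sgNS at 5 hr (0.0016, 0.0015) and day 5 (-0.18, -0.17), TUG1 between sgZBTB11-1 and sgNS at day 1 (0.034, 0.033), day 3 (-0.12, -0.12) and day 5 (-0.075, -0.074) and between sgZBTB11-2 and sgNS at day 5 (-0.031, -0.030), NORAD between sgZBTB11-1 and sgNS at day 5 (-0.21, -0.20), and the net changes at day 5 of TUG1 (0.16, 0.15) and NORAD (0.23, 0.22). With the length and GC trend removed, which 90.6% to 93% of tested genes had values for, NEAT1 from 5 hr to day 1 was -0.026. The causes were not tested. KCNQ1OT1 had no value in 12 comparisons on the TPM scale, and DESeq2 gave no adjusted p for MIR17HG in 11 and KCNQ1OT1 in 3. MIR17HG, at 21 to 183 counts, and KCNQ1OT1, at 135 to 632, are limited by depth.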
